A study of Mus musculus with 14 samples.

Results

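The genes that carry iron into, through and out of the cell and store it there were followed in cultured mouse astrocytes with and without connexin43 (Cx43, encoded by Gja1), the main gap junction protein of these glial cells. The 10 genes were Trf, Tfrc, Fth1, Ftl1, Slc40a1, Slc11a2, Cp, Hfe, Aco1 and Ireb2, found by their symbol in the table that pairs probes with genes. They were selected on the values of Trf, which had been lower in siRNA-treated samples in an earlier analysis of the same data, so the values of Trf are given as a description with no test. Of the 10 genes, 9 had a probe, 12 probes in all among 33600 on the array and 9 genes among 13661 with a name. Ireb2 was not analysed here. The 12 probes all passed the filter of at least 2 values in each group.

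Samples treated with an siRNA (4) came from wild-type cultures transfected at confluence with 20 ug of a Cx43 siRNA construct, for 36 h per the design text, with a protein check at 48 h per the protocol. Null samples (4) came from mice without Cx43, and wild-type samples (6 columns, of which replicates 3, 4 and 6 were used) from untreated cells. The cells of all 3 groups came from brains taken shortly after birth, cultured by littermate in serum and passaged once. The titles call them cortical, while the protocol describes whole brain tissue, and the strain, sex and null allele stand in no source used here. Cells given a control siRNA or the transfection reagent alone were not analysed here, so the siRNA and the transfection cannot be told apart. Each sample is 1 dye channel (Cy3 or Cy5, balanced in the siRNA and null groups) of a spotted oligonucleotide array. Consecutive samples may share an array, and the labels name no culture per sample, so each p-value reflects sample-to-sample spread that may be technical.

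Iron travels in blood and medium bound to transferrin (Trf), enters cells with the transferrin receptor (Tfrc), and crosses the endosome membrane through a divalent metal transporter (Slc11a2). Ferritin, a shell of heavy (Fth1) and light (Ftl1) chains, stores it, and ferroportin (Slc40a1) exports it together with the ferroxidase ceruloplasmin (Cp), which astrocytes carry on their surface. Hfe binds the transferrin receptor. The iron regulatory proteins encoded by Aco1 and Ireb2 bind the messages of Tfrc and of the ferritins when iron is scarce, which stabilises the first and blocks translation of the others. In brain, most transferrin is made by oligodendrocytes and choroid plexus.

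Upstream sequence is shown for Tfrc, the member that differed between groups by the test, and for Ftl1, its counterpart on the storage side. Both windows hold the 250 bases before an annotated start, from RefSeq sequence of GRCm38.p6, at chr16:32608646-32608895 on the plus strand and chr7:45459887-45460136 on the minus strand. Capitals mark matches on either strand to ACGTG and GCGTG (hypoxia response cores), TGACNNNGC (an antioxidant response core), CCAAT and GGGCGG.
Tfrc: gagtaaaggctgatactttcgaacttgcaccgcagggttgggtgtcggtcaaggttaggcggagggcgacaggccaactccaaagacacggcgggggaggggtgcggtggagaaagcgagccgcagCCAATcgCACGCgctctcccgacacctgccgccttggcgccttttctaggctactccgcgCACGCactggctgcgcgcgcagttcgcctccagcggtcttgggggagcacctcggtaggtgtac
Ftl1: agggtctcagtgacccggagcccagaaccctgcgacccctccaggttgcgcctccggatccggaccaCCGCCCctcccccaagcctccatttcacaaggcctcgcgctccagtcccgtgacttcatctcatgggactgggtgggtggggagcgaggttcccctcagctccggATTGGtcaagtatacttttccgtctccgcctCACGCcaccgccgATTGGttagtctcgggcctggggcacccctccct
In the Tfrc window GCGTG, read on the other strand, began at -117 and -64 and CCAAT at -124, counted back from the start. The Ftl1 window held GCGTG at -47, CCAAT at -78 and -34 and GGGCGG at -183, each read on the other strand. No motif searched overlapped another in these windows. A window before another annotated Tfrc start, at chr16:32608872-32609121, is not shown. It held ACGTG at -228, GCGTG at -134 and -42 and GGGCGG at -35. Among 32851 upstream windows of the same length, 28.2% held GCGTG, 16.6% ACGTG, 10.2% TGACNNNGC, 33.8% CCAAT and 32.7% GGGCGG. Upstream windows were found for 7 of the 10 genes. Trf, Slc40a1 and Slc11a2 are named only.

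Before the iron genes, the columns and the target were checked. Per sample, 17849 to 26826 of the 33600 probes held a value. The 11 columns used followed one another (r of 0.894 to 0.948 with the mean of the others, across probes, which are not independent replicates). Wild-type replicates 1 and 2 correlated at 0.37 and 0.38, and replicate 5 at -0.02 with an SD of 0.48 against 2.32 to 2.81 in the 11, so these 3 columns were left out of the fit. Gja1 was lower in null samples than in wild type by a log2 difference of -3.31 ± 0.58 (SE, limma adjusted p = 0.0376) and lower in null than in siRNA samples by -2.90 ± 0.48 (adjusted p = 0.00706). Gja1 read 1.9, 2.1, 5.5 and 5.7 in siRNA samples 1 to 4, and 6.1, 7.5 and 4.8 in wild-type samples 3, 4 and 6. Null samples 1 to 4 read -1.2, -1.1, 2.8 and 3.0. In siRNA samples Gja1 differed from wild type by -0.41 ± 0.58 (adjusted p = 0.731), while the design text reports the mRNA 3.24 times lower. The siRNA difference lay within its error and its sign depended on 1 sample. It was 0.25 without wild-type replicate 4 and -1.10 with the replicate number as a block, which sets wild-type replicate 6 aside. Without the replicate term it was -2.31 (limma adjusted p = 0.587). With array pairs as a random block, neither null difference of Gja1 passed (-3.11, adjusted p = 0.242, against wild type; -2.90, adjusted p = 0.0522, against siRNA). Null minus wild type was also lost with the moved wild-type columns (adjusted p = 0.0772), with columns scaled to 1 spread (0.0698), without the replicate term (-5.21, adjusted p = 0.618), and without wild-type sample 3 or 4, null sample 2, 3 or 4 or siRNA sample 1, 3 or 4 (-3.42 to -2.65, adjusted p 0.0513 to 0.212). Null minus siRNA passed in each fit with 1 sample left out and was lost without the replicate term (adjusted p = 0.406). Differences below are log2 differences from 1 fit over the 11 samples with dye and a term for replicates 1 and 2 against 3 and above, and calls are those with an adjusted p under 0.05.

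Transferrin read lowest in the siRNA samples. Trf, at chr9:103208876-103230286 in GRCm38.p6, had log2 values of 0.00, 0.00, 0.54 and 0.49 in siRNA samples 1 to 4, against 3.60, 2.49 and 2.95 in wild-type samples 3, 4 and 6. In null samples 1 to 4 it had 2.70, 2.68, 1.71 and 1.36. The siRNA values lay below those of both other groups with no overlap, while the null and wild-type ranges overlapped, 2 null samples reading above wild-type replicate 4. A log2 value of 0 is the median of the probe's print block of 700 probes, and Trf stood at exactly 0 in 2 samples, siRNA 1 and 2; no source used here says whether that is a measurement.

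In the fit, Trf was lower in siRNA samples than in wild type by 7.79-fold (-2.96 ± 0.47, SE) and lower in null samples than in wild type by 2.16-fold (-1.11 ± 0.47, SE). Between the manipulations it was 3.61-fold higher in null than in siRNA samples (1.85 ± 0.39, SE). The distance between null and siRNA was 2.69 within replicates 1 and 2 and 1.02 within replicates 3 and 4. Within replicates 3 and above, siRNA lay -2.49 and null -1.48 from wild type. The wild-type columns left out read 4.57 and 4.94 for Trf, and against these 2 the siRNA samples 1 and 2 lay -4.75 and the null samples 1 and 2 -2.06. The Trf means of both manipulations thus lay below the wild-type mean of the same replicate set, and the distances differed between the sets.

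**Figure D1:**
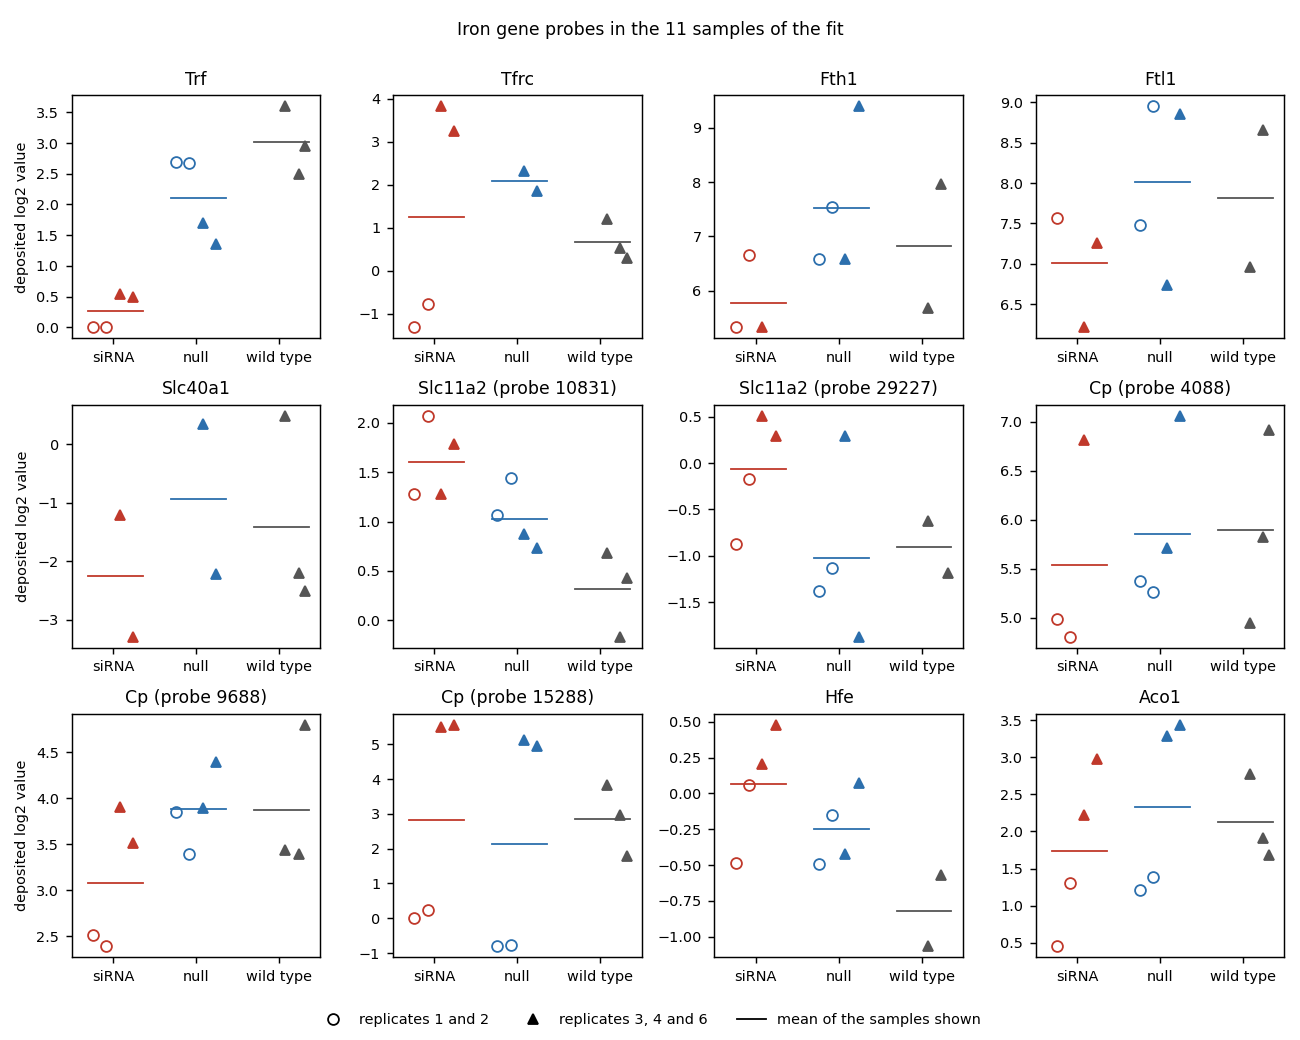
Deposited log2 value (vertical axis) of each of the 12 probes of the 9 measured iron genes in siRNA, null and wild-type samples. Open circles are replicates 1 and 2, filled triangles replicates 3, 4 and 6, and lines the mean of the samples shown. Trf in siRNA samples sits between 0.00 and 0.54, below the other samples, and Tfrc and Cp probe 15288 split by replicate set within the siRNA group.

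The receptor went the other way in part of the samples. Tfrc, which binds iron-loaded transferrin and carries it into the cell (chr16:32608896-32632794), read -1.31, -0.77, 3.82 and 3.24 in siRNA samples 1 to 4, against 1.20, 0.54 and 0.30 in wild-type samples 3, 4 and 6. Null samples 3 and 4 read 2.33 and 1.85, and null samples 1 and 2 had no value. Of the siRNA samples, replicates 3 and 4 stood above the wild-type samples and replicates 1 and 2 below them. The fit, whose replicate term rests for this probe on the siRNA samples, gave Tfrc 6.92-fold higher in siRNA samples than in wild type (2.79 ± 0.46, SE, 95% interval 1.78 to 3.80, adjusted p = 0.00794). Null minus wild type was 1.35 ± 0.46 (adjusted p = 0.166) and null minus siRNA -1.44 ± 0.50 (adjusted p = 0.11).

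Within replicates 3 and above, the mean of the siRNA samples lay 2.85 above that of wild type, with no test run there. Against the wild-type columns left out, which read -0.17 and -1.15, siRNA samples 1 and 2 lay -0.38 away. With those columns added the difference was 1.33 (adjusted p = 0.213), without the replicate term it was 0.51 (adjusted p = 0.917), and with all 14 columns 1.06 (adjusted p = 0.684). Array pairs as a random block gave 2.83 (adjusted p = 0.0554). Leaving out siRNA replicate 3 or 4 gave adjusted p of 0.0625 and 0.0776, and without null replicate 3 or 4 the probe had too few values to be tested.

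The importer Slc11a2, which moves ferrous iron out of endosomes, was read by a pair of probes. Its brighter probe gave 1.28, 2.07, 1.28 and 1.79 in siRNA samples 1 to 4, 1.07, 1.44, 0.87 and 0.73 in null samples 1 to 4, and 0.69, -0.17 and 0.43 in wild-type samples 3, 4 and 6. Every siRNA and null sample of this probe stood above every wild-type sample, though null replicate 4, at 0.73, stood only just above wild-type replicate 3. Neither difference passed the test, with siRNA minus wild type at 1.17 ± 0.41 (SE, adjusted p = 0.105) and null minus wild type at 0.59 ± 0.41 (adjusted p = 0.512). The other probe gave 1.19 ± 0.59 (adjusted p = 0.252) and 0.23 ± 0.59 (adjusted p = 0.895) in the same order. The brighter probe passed for siRNA minus wild type in 2 other fits, with the moved wild-type columns added (1.38, adjusted p = 0.0362) and with array weights (1.36, adjusted p = 0.0413).

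On the export side, ferroportin was measured in few samples. Slc40a1, the one known iron exporter of mammalian cells, had no value in siRNA or null samples 1 and 2. It read -1.21 and -3.29 in siRNA samples 3 and 4, 0.34 and -2.22 in null samples 3 and 4, and 0.48, -2.21 and -2.50 in wild-type samples 3, 4 and 6. In each group the Cy5 sample read lower than its Cy3 neighbour, by 2.08 to 2.69, a step wider than any distance between groups. No difference passed, at -1.26 ± 0.44 for siRNA minus wild type (SE, adjusted p = 0.125), 0.05 ± 0.44 for null minus wild type (adjusted p = 0.974) and 1.31 ± 0.48 for null minus siRNA (adjusted p = 0.136).

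Ceruloplasmin, which oxidises iron as it leaves the cell, had 3 probes that disagreed. By its brightest probe (4088), Cp read 4.99, 4.81 and 6.82 in siRNA samples 1 to 3, 5.38, 5.27, 5.72 and 7.06 in null samples 1 to 4, and 4.95, 5.82 and 6.92 in wild-type samples 3, 4 and 6. The groups overlapped throughout, and this probe, through which Cp is counted, gave 0.85 ± 0.63 for siRNA minus wild type (SE, adjusted p = 0.467) and 0.82 ± 0.54 for null minus wild type (adjusted p = 0.495). Probe 9688 gave -0.34 ± 0.47 (adjusted p = 0.731) and 0.47 ± 0.47 (adjusted p = 0.677). Probe 15288 gave 2.72 ± 0.48 (adjusted p = 0.00741) and 2.02 ± 0.48 (adjusted p = 0.0653).

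The third Cp probe split by replicate set rather than by group. It read 0.02 and 0.23 in siRNA samples 1 and 2 and 5.50 and 5.55 in siRNA samples 3 and 4, and -0.80 and -0.76 in null samples 1 and 2 and 5.12 and 4.96 in null samples 3 and 4. Wild-type samples 3, 4 and 6 read 3.82, 2.97 and 1.77. Within replicates 3 and above siRNA lay 2.67 above wild type, and within replicates 1 and 2, against the wild-type columns left out, -2.01. Without the replicate term its difference was -0.085 (adjusted p = 0.993). The call was lost without siRNA replicate 4 (2.65, adjusted p = 0.0611), and without wild-type replicate 3 null minus wild type passed (2.58, adjusted p = 0.0482).

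The ferritin chains overlapped between groups. Fth1, the heavy chain that oxidises iron on entry to the shell, read 5.33, 6.66 and 5.33 in siRNA samples 1 to 3, 6.59, 7.54, 6.58 and 9.39 in null samples 1 to 4, and 5.69 and 7.97 in wild-type samples 3 and 4. Ftl1, the light chain that helps the iron core form, read 7.57, 6.21 and 7.26 in siRNA samples 1, 3 and 4, 7.49, 8.95, 6.74 and 8.86 in null samples 1 to 4, and 6.97 and 8.66 in wild-type samples 3 and 4. For both genes the Cy5 sample of a group read above its Cy3 neighbour, by 0.96 to 2.82 for Fth1 and 1.04 to 2.12 for Ftl1. Among the Cy3 samples alone, Fth1 read 5.33 and 5.33 in siRNA samples, 6.59 and 6.58 in null samples and 5.69 in the 1 wild-type sample with a value.

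With dye in the fit, siRNA minus wild type was -0.29 ± 0.60 for Fth1 (SE, adjusted p = 0.827, 95% interval -1.62 to 1.03) and -0.85 ± 0.50 for Ftl1 (adjusted p = 0.346, 95% interval -1.95 to 0.26). Null minus wild type was 1.03 ± 0.53 for Fth1 (adjusted p = 0.358) and -0.24 ± 0.50 for Ftl1 (adjusted p = 0.863). The widest ferritin difference was Fth1 in null minus siRNA, 1.32 ± 0.44 (adjusted p = 0.102), against 0.61 ± 0.41 for Ftl1 (adjusted p = 0.401). Near-identical ferritin pseudogenes exist in the mouse genome, and probe sequences were not used here, so the share of each probe's signal that comes from such copies was not tested.

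The genes that sense and set iron uptake gave no call. Hfe, a partner of the transferrin receptor, read -0.48, 0.06, 0.21 and 0.48 in siRNA samples 1 to 4, -0.49, -0.15, -0.42 and 0.07 in null samples 1 to 4, and -1.07 and -0.57 in wild-type samples 3 and 4. Both of these wild-type values lay below every value of the other groups. The wild-type columns left out read -0.87 and 0.50, the second above every siRNA and null sample. Against these columns siRNA samples 1 and 2 lay -0.023 and null samples 1 and 2 -0.136 away. The differences did not pass, at 1.06 ± 0.40 for siRNA minus wild type (SE, adjusted p = 0.136) and 0.74 ± 0.40 for null minus wild type (adjusted p = 0.374). Aco1, the cytosolic aconitase that turns into an iron regulatory protein without its iron-sulfur cluster, read 0.46, 1.30, 2.22 and 2.98 in siRNA samples 1 to 4, 1.22, 1.39, 3.28 and 3.43 in null samples 1 to 4, and 2.77, 1.92 and 1.69 in wild-type samples 3, 4 and 6. Replicates 3 and 4 read above replicates 1 and 2 in both manipulated groups. Its differences from wild type were 0.58 ± 0.44 in siRNA samples (adjusted p = 0.475) and 1.17 ± 0.44 in null samples (adjusted p = 0.198).

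Counted once per gene, 1 of the 8 measured genes other than Trf was called in siRNA minus wild type (Tfrc, higher), 0 in null minus wild type and 0 in null minus siRNA. Over all 20412 probes tested, 7.41% were called in siRNA minus wild type (5.44% higher, 1.97% lower), 0.617% in null minus wild type and 5.89% in null minus siRNA (3.63% higher, 2.26% lower). A single call among 8 genes is near that background. With the replicate number as a block, the counts were again 1, 0 and 0, and 1992, 394 and 2381 probes were called, against 1512, 126 and 1202 without it. That block sets wild-type replicate 6, alone at its number, aside from the differences, and no label gives pairing by number. At an unadjusted p under 0.05 with a change of at least 1.5-fold, limma gave 4, 2 and 3 of the 8 genes in the 3 comparisons, where 23.4%, 17.1% and 24.8% of all probes passed the same rule. The median difference of the 8 genes was 0.71 in siRNA minus wild type, 0.78 in null minus wild type and 0.28 in null minus siRNA, and that of all probes 0.13, 0.27 and 0.11. The comparisons against wild type share their 3 wild-type samples.

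**Figure D2:**
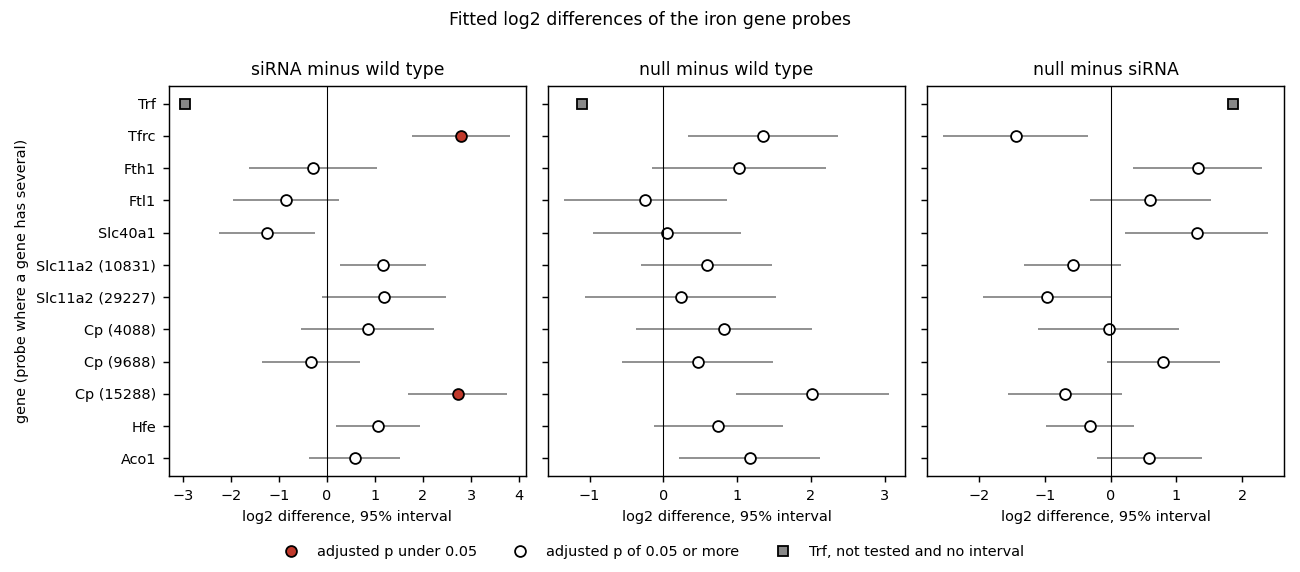
Log2 difference (horizontal axis) of each iron gene probe in siRNA minus wild type, null minus wild type and null minus siRNA, with 95% intervals except for Trf. Filled circles passed an adjusted p of 0.05, open circles did not, and the grey square is Trf, which was not tested; Tfrc at 2.79 and Cp probe 15288 at 2.72 are the filled ones.

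Since transferrin comes mainly from oligodendrocytes and choroid plexus in brain, marker genes of these and of other cell types were read beside it. In bulk RNA, fewer cells of a type and less RNA per cell cannot be told apart. Astrocyte markers Aqp4 and Glul had a value in all 11 samples, while Gfap had none in any. The log2 of the summed level of 7 astrocyte markers was 5.82, 6.51, 6.85 and 7.50 in siRNA samples 1 to 4, 7.20 to 8.30 in null samples and 7.35 to 7.67 in wild-type samples. In siRNA samples 1 to 3 it thus lay below every null and wild-type sample, and siRNA sample 4 overlapped them. Such sums add unlogged values, so the brightest markers weigh most in each. In the fit, the 9 astrocyte markers tested had a median of -0.34 in siRNA minus wild type, with 4 above 0 and 5 below. Glul, the brightest, gave -0.34 ± 0.40 (SE, limma adjusted p = 0.669). Of 16 microglia markers, 12 were tested and 6 were lower in siRNA samples than in wild type (C1qa, C1qb, Tyrobp, Ly86, Aif1 and Laptm5), with a median of -1.88. Over all probes tested, 5.44% were called higher and 1.97% lower there, and 3.63% higher and 2.26% lower in null minus siRNA. The same shares apply to each marker list below. The log2 of the summed level of 11 microglia markers ran from 6.33 to 7.11 in siRNA samples, 6.60 to 9.18 in null samples and 8.10 to 8.37 in wild-type samples. Null samples 1 and 2, at 8.79 and 9.18, read above null samples 3 and 4, at 6.60 and 7.38. Of the 12, 5 were higher in null than in siRNA samples, and 1 once array pairs were a random block.

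Of 16 oligodendrocyte markers, 8 were tested and 0 were called by limma in siRNA minus wild type, with a median of -0.15. There 3 lay above 0 and 5 below, Olig2 (-1.05), Sox10 (-1.01) and Olig1 (-0.93) lowest and Pdgfra (0.92) and Cnp (0.63) highest. Sox10 was higher in null than in siRNA samples (1.66, limma adjusted p = 0.0128). The log2 of 5 summed markers ran from 5.18 to 6.65 in siRNA samples, 5.49 to 7.03 in null samples and 6.18 to 7.99 in wild-type samples. The myelin markers Mbp, Mog, Mobp, Cldn11, Ugt8a and Ermn had a value in 3 to 6 of the 11 samples and Opalin in none. Of 12 choroid plexus and ependyma markers, 9 were tested and 1 (Ccdc39) was lower in siRNA samples than in wild type, and 4 (Foxj1, Ttr, Ccdc39 and Folr1) were higher in null than in siRNA samples, against 1 with array pairs as a random block. Their 5 summed markers ran from 1.97 to 3.71 in siRNA samples, 4.01 to 5.97 in null samples and 3.75 to 5.84 in wild-type samples. For this sum the siRNA samples lay below the other groups, but siRNA sample 3, at 3.71, was only just below wild-type sample 6, at 3.75. The 9 tested markers had a median of -0.21 in siRNA minus wild type, with 3 above 0 and 6 below. Null samples 1 and 2, at 4.10 and 4.01, lay below null samples 3 and 4, at 5.56 and 5.97. For the microglia sum the siRNA samples overlapped the null samples.

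Of the other markers, Aldoc was lower and Aldh1l1 higher among 9 astrocyte markers tested in siRNA minus wild type, Col3a1 and Dcn were lower among 8 fibroblast markers, Flt1 among 5 endothelial and Tubb3 among 5 neuronal ones. In null minus siRNA, Sox9 and Aldoc were higher among the astrocyte markers and Slco1a4 and Flt1 among the endothelial ones. With a random block for array pairs, 3 of the 12 microglia markers and 0 of the 9 choroid plexus and ependyma markers were lower in siRNA samples than in wild type by limma, and 0 astrocyte, fibroblast, endothelial or neuronal markers were called. In null minus siRNA that block left 1 astrocyte call and 0 among oligodendrocyte and endothelial markers. The replicate number as a block sets wild-type replicate 6 aside. With it, 7 microglia, 2 choroid plexus and ependyma, 4 fibroblast and 1 oligodendrocyte marker were lower in siRNA samples than in wild type. So were 1 astrocyte, 1 endothelial and 1 neuronal marker, while 1 astrocyte marker was higher. In null minus wild type 2 fibroblast markers were lower. Between null and siRNA samples that fit called 6 microglia, 5 choroid plexus and ependyma, 3 astrocyte and 2 endothelial markers higher. It also called 2 oligodendrocyte, 1 fibroblast and 1 neuronal marker higher. The part of these cells in the Trf values was not tested.

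**Figure D3:**
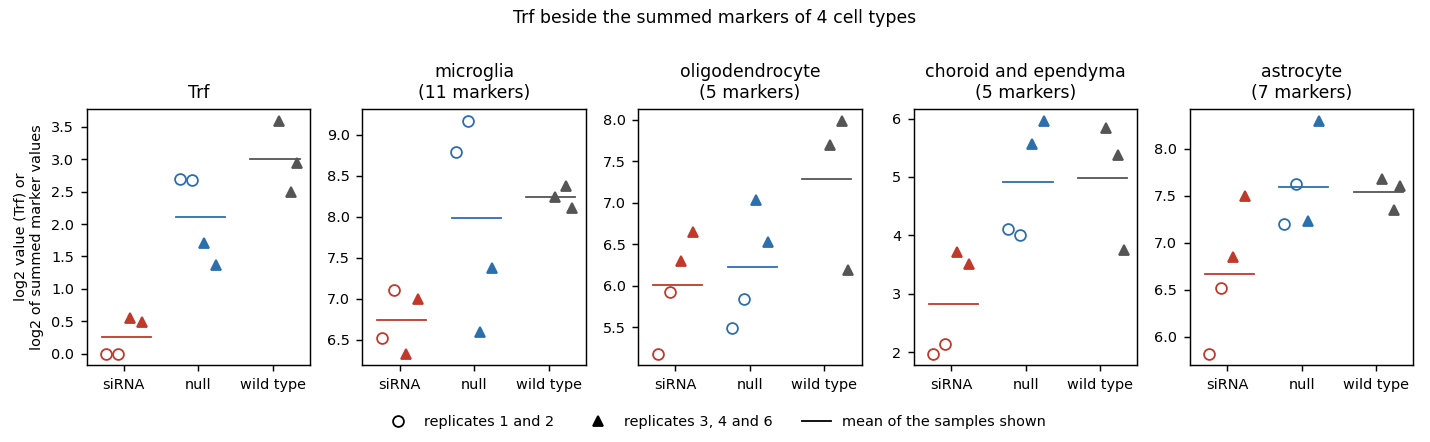
Log2 value of Trf and log2 of the summed level of microglia, oligodendrocyte, choroid plexus and ependyma, and astrocyte markers (vertical axes) in siRNA, null and wild-type samples; open circles are replicates 1 and 2, triangles replicates 3, 4 and 6, lines means. The 4 siRNA samples lie lowest for Trf and for the choroid plexus and ependyma markers, and the microglia sums of null samples split by replicate set.

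Probes that followed Trf most closely over the 11 samples were named as a description, among 9304 probes with 1 symbol and a value in all 11. By Pearson correlation they were Tnfaip8l2 (0.939), Dok3 (0.928), Lrch4 (0.922), Gria2 (0.921) and Fyb (0.915). By Spearman correlation they were Gusb (0.925), Adcy7 (0.925), Ccdc92 (0.911), Arhgap17 (0.911) and Slc25a23 (0.897). Dok3 and Fyb encode adaptor proteins of blood and immune cells, and Gria2 a subunit of the AMPA-type glutamate receptor. Tnfaip8l2 averaged -1.79 in siRNA samples, 0.06 in null samples and 0.70 in wild-type samples, and Gria2 0.08, 3.08 and 3.19 in the same groups. Among the iron genes with a value in all 11 samples, Slc11a2 ran against Trf (Pearson -0.645, Spearman -0.67) and Cp probe 9688 with it (0.487 and 0.378), while Cp probe 15288 gave -0.134 and -0.223 and Aco1 0.125 and 0.091. These samples share their dyes, replicate sets and possibly arrays.

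Beyond the 10 genes, lists of other genes that handle iron, heme and related metals were read in the same fit. Over all probes tested, 5.44% were called higher and 1.97% lower in siRNA minus wild type. In null minus siRNA 3.63% were called higher and 2.26% lower. These shares apply to each list below, and a single call in a list is near that background. Among 12 tested genes of iron uptake and export, 2 were higher in siRNA samples than in wild type and 0 lower. Lcn2, a secreted protein that binds iron-carrying siderophores, read 6.47, 6.88 and 6.20 in siRNA samples 1 to 3, 3.59, 3.53, 1.69 and 2.46 in null samples 1 to 4, and 0.75, 0.94 and 1.89 in wild-type samples 3, 4 and 6. The siRNA samples stood above the rest with no overlap and in both replicate sets. Lcn2 was higher by 4.77 ± 0.54 in siRNA minus wild type (SE, adjusted p = 0.00107) and lower by -3.59 ± 0.42 in null minus siRNA (adjusted p = 0.0012), and null minus wild type was 1.18 ± 0.47 (adjusted p = 0.222). Its other probe gave 3.31 in siRNA minus wild type (adjusted p = 0.172) and -0.48 in null minus siRNA (adjusted p = 0.821).

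Steap4, a reductase of ferric iron and copper, had no value in siRNA and null samples 1 and 2. It read 6.05 and 6.01 in siRNA samples 3 and 4, 0.62 and -1.90 in null samples 3 and 4, and 0.20, -1.83 and -1.70 in wild-type samples 3, 4 and 6. Both measured siRNA samples stood far above the others. Steap4 was higher by 6.88 ± 0.58 in siRNA minus wild type (SE, adjusted p = 0.000586) and lower by -6.67 ± 0.63 in null minus siRNA (adjusted p = 0.00092), and its other probe gave 4.92 (adjusted p = 0.0394) and -3.62 (adjusted p = 0.0488).

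Steap3, the reductase that prepares transferrin-borne iron for Slc11a2 in endosomes, was higher in null than in siRNA samples by 1.82 ± 0.39 (SE, adjusted p = 0.0227) at its brightest probe. It read 4.93, 4.96, 3.16 and 2.50 in null samples 1 to 4, against 3.29, 3.48, 0.68 and 0.83 in siRNA samples 1 to 4. Null stood above siRNA within each replicate set, with no overlap there. The other Steap3 probes gave 0.21 (adjusted p = 0.873) and -0.11 (adjusted p = 0.941), so the probes disagree. Slc39a14, a zinc and iron importer, Heph, a ferroxidase, and Cybrd1, a ferric reductase, gave 1.47 (adjusted p = 0.131), 2.18 (adjusted p = 0.122) and 1.30 (adjusted p = 0.146) in siRNA minus wild type. Steap1 gave -1.02 in null minus wild type (adjusted p = 0.294).

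Of 6 tested genes of iron storage and iron chaperones, 1 was higher and 1 lower in siRNA samples than in wild type. Both are poly(C)-binding proteins, a family that holds cytosolic iron chaperones. Pcbp3 read 0.11, 0.76, 0.56 and 0.84 in siRNA samples 1 to 4, against 4.15, 2.53 and 2.22 in wild-type samples 3, 4 and 6 (-2.17 ± 0.52, SE, adjusted p = 0.0272). Pcbp4 was higher by 1.54 ± 0.41 (SE, adjusted p = 0.0425), with siRNA samples 1 and 2 at -0.30 and -0.09 and siRNA samples 3 and 4 at 2.45 and 2.90, against 1.79, 0.60 and 1.27 in wild-type samples 3, 4 and 6. All 4 siRNA samples of Pcbp3 lay below the wild-type samples, while Pcbp4 lay above them in siRNA samples 3 and 4 and below them in siRNA samples 1 and 2. Ncoa4, the receptor that takes ferritin to the lysosome, was lower in null than in siRNA samples by -2.50 ± 0.56 (SE, adjusted p = 0.0342), on null samples 3 and 4 at -0.37 and -1.53 against siRNA samples 3 and 4 at 1.39 and 1.71. Glrx3, a glutaredoxin that binds iron-sulfur clusters, was lower in null than in siRNA samples by -1.29 ± 0.33 (SE, adjusted p = 0.0412), and its other probe gave -0.70 (adjusted p = 0.169).

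Genes of mitochondrial iron and iron-sulfur clusters gave 1 call of 20 tested in siRNA minus wild type and 1 in null minus siRNA, no more than the 7.41% and 5.89% of all probes called there. Abcb8, a mitochondrial transporter, was higher in siRNA samples by 1.67 ± 0.41 (SE, adjusted p = 0.0301), and its other probes gave 0.17 (adjusted p = 0.894) and 0.54 (adjusted p = 0.684). Abcb8 read -1.58 and -1.07 in siRNA samples 1 and 2 and 1.75 and 2.32 in siRNA samples 3 and 4, against 0.61, 0.32 and 0.73 in wild-type samples 3, 4 and 6, so siRNA samples 1 and 2 lay below wild type and 3 and 4 above. As a mean of probes its difference was 0.68 (adjusted p = 0.393). Nfs1, the enzyme that supplies sulfur for the clusters, read 3.14, 3.20, 3.86 and 4.13 in null samples 1 to 4, against 0.42, 0.06, 3.01 and 2.91 in siRNA samples 1 to 4. It was higher in null than in siRNA samples by 1.98 ± 0.40 (SE, adjusted p = 0.017). Null lay above siRNA within each replicate set, by a mean of 2.93 within replicates 1 and 2 and 1.03 within replicates 3 and 4. Slc25a28, a mitochondrial iron importer, gave -0.73 in null minus wild type (adjusted p = 0.304).

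Among 17 tested genes of heme making and breakdown, 0 were called by limma against wild type in either manipulation and 1 was lower in null than in siRNA samples. Blvrb, a biliverdin reductase, read 1.77, 1.52, 0.69 and 1.11 in null samples 1 to 4, against 3.88, 3.91, 2.46 and 2.97 in siRNA samples 1 to 4, with no overlap (-2.03 ± 0.33, SE, adjusted p = 0.0065). Its siRNA minus wild type was 1.39 (adjusted p = 0.0559). Hmox1, which opens the heme ring and frees its iron, read 6.60, 7.38, 4.88 and 6.0 in siRNA samples 1 to 4 and 5.17, 4.57 and 5.89 in wild-type samples 3, 4 and 6, a difference of 0.65 ± 0.52 (SE, adjusted p = 0.493). Alas1, the first enzyme of heme synthesis, gave 1.09 ± 0.49 (adjusted p = 0.202), and Fech, which inserts the iron, 0.98 (adjusted p = 0.178). In null minus wild type, Hpx, the heme carrier of plasma, gave 1.99 (adjusted p = 0.105) and Abcg2 -1.23 (adjusted p = 0.317).

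Of 7 tested regulators of iron, 0 were called by limma against wild type. Smad4, which carries the signals that set hepcidin, was higher in null samples (3.87, 3.45, 4.29 and 4.27) than in siRNA samples (2.39, 2.53, 2.68 and 2.78) with no overlap (1.37 ± 0.33, SE, adjusted p = 0.0321). Bmp6, a ligand of that pathway, gave 1.69 in siRNA minus wild type (adjusted p = 0.0592) and 2.16 in null minus wild type (adjusted p = 0.0623), and Tmprss6 gave 1.27 in null minus wild type (adjusted p = 0.369). Of 12 tested copper, zinc and manganese genes, 1 was higher in siRNA samples than in wild type. Slc39a10, a zinc importer, was higher by 1.81 ± 0.44 (SE, adjusted p = 0.0323), with siRNA samples 1 and 2 at 0.59 and 0.94 and siRNA samples 3 and 4 at 2.47 and 2.38, against 1.03 and 0.53 in wild-type samples 3 and 4, and its null minus wild type was 2.16 ± 0.44 (adjusted p = 0.0569). Atp7a, a copper pump, gave 0.77 (adjusted p = 0.638) in siRNA minus wild type, Atp7b 1.55 (adjusted p = 0.336) in null minus wild type, and Mt1 0.90 (adjusted p = 0.094) and Atox1 0.93 (adjusted p = 0.122) in null minus siRNA. In null minus wild type 0 genes of these 6 lists were called by limma, where 0.617% of all probes were called. Fbxl5 was not tested.

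Most of these list calls were lost when array pairs entered the fit as a random block. Lcn2 and Steap4 were then the 2 uptake and export genes called, higher in siRNA samples than in wild type and lower in null than in siRNA samples, and limma called 0 genes in the other 5 lists. Without the replicate term Pcbp4 was 0.0113 (adjusted p = 0.998) and Slc39a10 0.81 (adjusted p = 0.791), and limma then called neither Pcbp3 nor any of Steap3, Smad4, Nfs1, Glrx3, Ncoa4 and Blvrb. With columns scaled to 1 spread Glrx3 was -0.70 (adjusted p = 0.47), and Pcbp3, Pcbp4, Slc39a10, Abcb8 and Ncoa4 were lost (adjusted p 0.0515 to 0.183). As a mean of probes, null minus siRNA was -2.04 for Lcn2 (adjusted p = 0.109), -0.039 for Steap3 and -0.997 for Glrx3 (adjusted p = 0.067), so these 3 calls were lost. With all 14 columns as deposited, Lcn2 and Steap4 in siRNA minus wild type were the calls left among the genes called above. With the moved wild-type columns added, Pcbp4 (0.70, limma adjusted p = 0.424), Abcb8 (adjusted p = 0.051), Glrx3 and Ncoa4 (adjusted p = 0.0637 for each) were lost. In siRNA minus wild type that fit called 2 heme genes higher, and 1 regulator and 1 mitochondrial gene lower. With the replicate number as a block, calls in null minus siRNA came to 2 higher and 1 lower among regulators, 1 higher and 3 lower among heme genes and 2 higher among mitochondrial genes. Uptake and export genes gave 1 higher and 3 lower there, and storage and chaperone genes 2 lower. Under the same block 2 copper, zinc and manganese genes were higher in siRNA samples than in wild type and 1 was higher in null samples.

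With 1 sample left out at a time, Lcn2 and Blvrb were called in each fit. Steap4 was called in each of its 7 fits, but removing siRNA or null sample 1 or 2 took away no Steap4 value. Without siRNA or null sample 3 or 4, neither Steap4 nor Ncoa4 could be tested. Nfs1 was lost without null replicate 2 (1.71, adjusted p = 0.0565) and Ncoa4 without wild-type replicate 4 (-2.50, adjusted p = 0.0507). Pcbp3 was lost without replicate 3 or 4 of the siRNA or of the wild-type samples, where it ranged from -2.35 to -1.38 (adjusted p 0.0567 to 0.125). Abcb8 was lost without siRNA replicate 3 or 4, null replicate 1 or wild-type replicate 4, at 1.53 to 1.92 (adjusted p 0.0577 to 0.158). Slc39a10 was lost without siRNA replicate 3 or 4 or null replicate 1, 2 or 3, at 1.72 to 1.94 (adjusted p 0.0528 to 0.121). Pcbp4 was kept only without wild-type replicate 3, and stood at 1.24 to 1.76 in the other fits (adjusted p 0.052 to 0.212). In null minus siRNA, Steap3 was lost on removal of null sample 2, 3 or 4, or of siRNA sample 1, 3 or 4 (1.61 to 1.91, adjusted p 0.0568 to 0.0906). Smad4 was lost without any 1 null replicate or siRNA replicate 1, 3 or 4 (1.30 to 1.50, adjusted p 0.0565 to 0.11), and Glrx3 without any 1 null or siRNA replicate (-1.43 to -1.06, adjusted p 0.061 to 0.148). Signs did not turn in these fits.

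**Figure D4:**
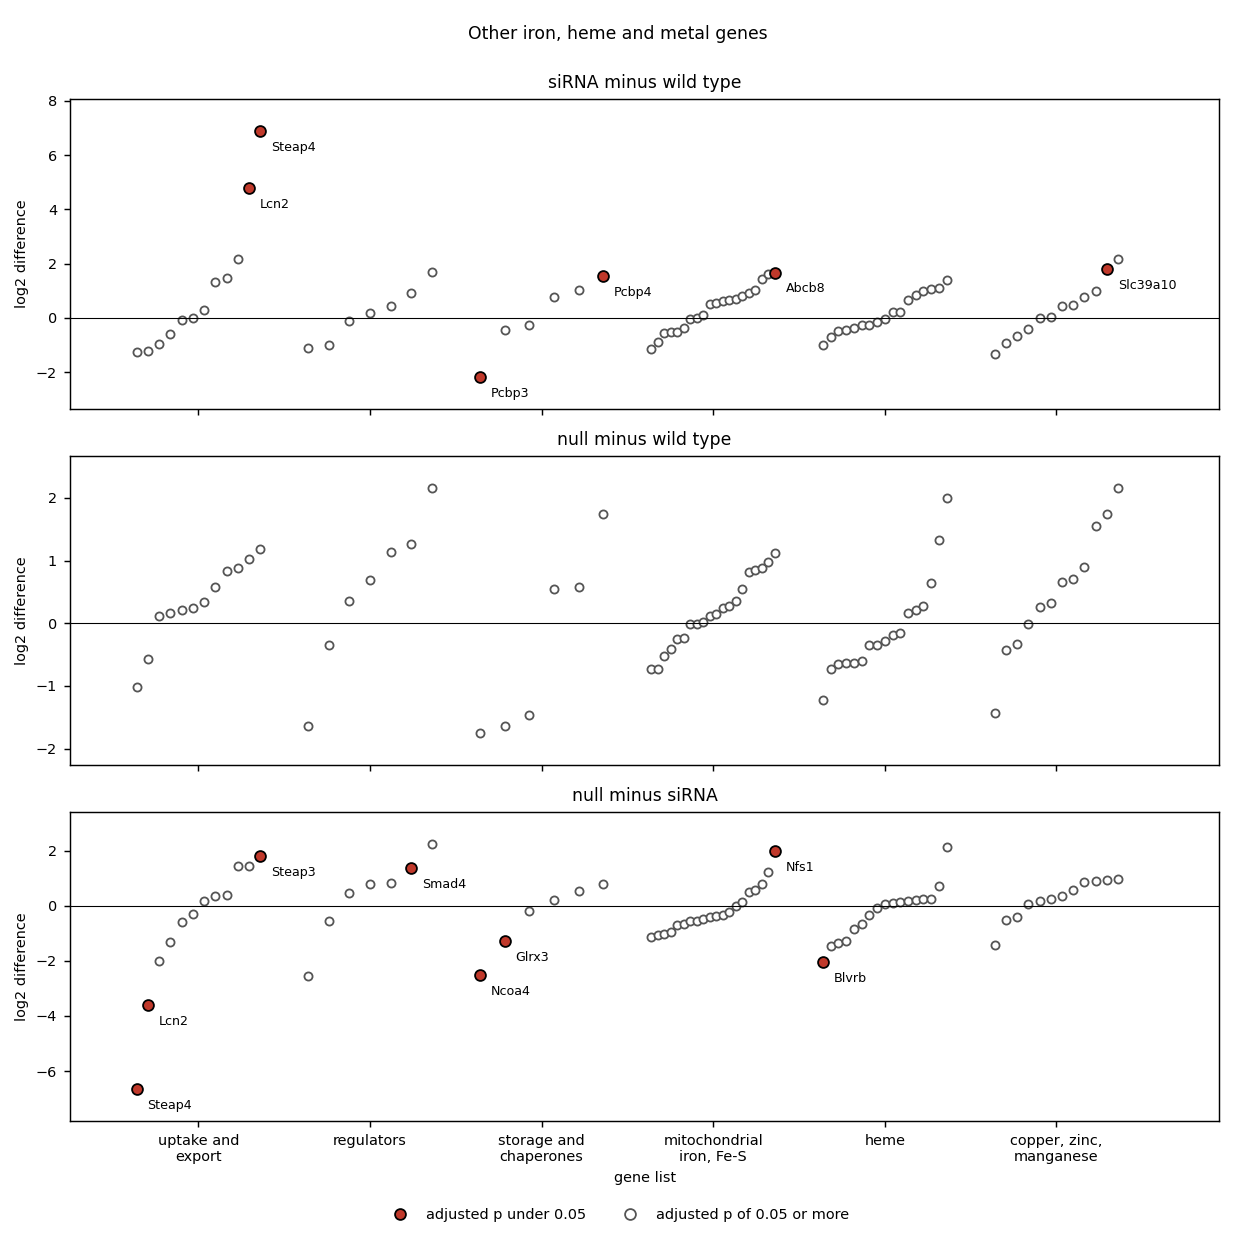
Log2 difference (vertical axis) of each tested gene of 6 iron, heme and metal lists (horizontal axis, genes sorted by difference within a list) in siRNA minus wild type, null minus wild type and null minus siRNA. Filled points passed an adjusted p of 0.05; Steap4 at 6.88 and Lcn2 at 4.77 stand highest in siRNA minus wild type, and no point is filled in null minus wild type.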

How the data were processed

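Log2 values, 1 for each probe in each sample, are as the authors deposited them. The sources used here name no scanner, background correction, filter or normalization. Cy3 or Cy5 was attached directly to 20 ug of total RNA, per the labels' protocols. Within each of 48 print blocks of 700 probes the median of every column was 0 to within 0.0026. Of 33600 probes, 18179 have 1 gene symbol, 87 several and 15334 are unnamed here.

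The fit ran on R 4.3.3 with limma 3.58.1 (lmFit, then eBayes) on 11 samples, with group, dye and replicate set (replicates 1 and 2, or 3 and above) as terms. Probes with at least 2 values in each group were tested, 20412 in all, two-sided, with Benjamini-Hochberg adjustment over them. A gene with several probes counts once, through the probe with the highest mean. Genes, gene lists, samples and terms were chosen with earlier results of these data known. Named genes were the 10 members, Gja1, 12 iron genes whatever their values (1 is not reported here), each called gene of the lists or otherwise the 2 with the smallest p per comparison, and the 10 probes most like Trf. The method was tested on simulated data with noise drawn independently for each sample, so correlation within array pairs was not covered.

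Wild-type columns 1 and 2 were also read after moving runs of values by 1 grid row where this matched the other samples: of 1344 block columns, 1267 were placed at r of at least 0.5, and 882 of them were moved. Among the iron genes the values of Ftl1, Slc40a1 and Aco1 lay in moved columns. Same-numbered samples of different groups deviated together (r of 0.121 to 0.647 over 8 pairs). The siRNA and null deviations still held the split by replicate set, and samples of unlike number were not compared. Pairing by replicate number was thus not tested, and no label gives it. The deviations of consecutive samples correlated at -0.189 to 0.927.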

Additional observations from a re-analysis of the deposited data

Results flagged for a closer look

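The value of Trf drew attention because the effects of both manipulations on it were unequal. Null minus siRNA was 1.85 on the log2 scale, with null samples at 1.36 to 2.70 and siRNA samples at 0.00 to 0.54, and no overlap. Trf was picked for its low values in these siRNA samples, so the difference is a description and was not tested on other samples. The microglia markers, summed, ran from 6.60 to 9.18 in null samples and 6.33 to 7.11 in siRNA samples, with overlap. The choroid plexus and ependyma markers, summed, ran from 4.01 to 5.97 in null samples and 1.97 to 3.71 in siRNA samples, without overlap. The part of either in the Trf value was not tested.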

How the results depend on the processing

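Of the 8 iron genes other than Trf, 1 was called in siRNA minus wild type. The count was 0 without the replicate term, with all 14 columns as deposited, with array pairs as a random block and over probes measured in all 11 samples, where 2 of the genes could be tested. It was 2 with array weights and 4 at an unadjusted p with 1.5-fold, and leaving out 1 sample in turn gave 0 to 1 (0 without siRNA replicate 3 or 4 or null replicate 3 or 4). In null minus wild type the count was 0 under each adjusted alternative run and 2 at an unadjusted p. In null minus siRNA it was 1 with array weights (Tfrc, -1.40, adjusted p = 0.0388), 3 at an unadjusted p and 0 otherwise. With the wild-type columns moved the 1 call was Slc11a2, not Tfrc.

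Calls over all probes depended on the terms. In siRNA minus wild type, null minus wild type and null minus siRNA they numbered 66, 0 and 75 without the replicate term, 49, 0 and 19 with 14 columns, 975, 0 and 680 with the moved columns, 259, 3 and 130 with array pairs (consensus correlation 0.436), 578, 31 and 790 with scaled columns, 1674, 315 and 1547 with quantile normalization and 2367, 261 and 3345 with array weights. The replicate block gave 1992, 394 and 2381 and changed no call of a member. Leaving out 1 sample gave 233 to 1608, 2 to 237 and 305 to 1848. Averaging the probes of a gene gave 1205, 69 and 952, and probes measured in all 11 samples 1239, 73 and 1132. Scaled columns moved the median of all probes in null minus siRNA to 0.232, against 0.109.

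Trf kept its sign in each alternative, at -3.56 to -2.67 in siRNA minus wild type. Signs turned without a call for the following, and the cause was not tested. In siRNA minus wild type, Cp was -0.24, Aco1 -0.37, Cp probe 15288 -0.085 and Abcb8 -0.17 without the replicate term, Abcb8 -0.0207 with 14 columns, Ftl1 0.57 with the moved columns, and Fth1 -0.68 to 0.0896 with 1 sample left out. In null minus wild type, Ftl1 was 0.20 without the replicate term, 0.20 with 14 columns and 1.42 with the moved columns. Cp probe 15288 was -0.78, -0.48 and -0.12 in the same order. Slc40a1 was -0.0777 with the replicate block, -0.23 with quantile normalization, -0.12 with scaled columns and -0.0777 to 0.25 with 1 sample left out. In null minus siRNA, Cp was 0.26, 0.24 and 0.0379 in that order, 0.0828 without dye, 0.48 with scaled columns, 0.22 as a mean of probes and -0.52 to 0.42 with 1 sample left out. Tfrc was 0.85 without the replicate term and with 14 columns, and Steap3 -0.039 as a mean of probes. Missing values and the number of arrays limit the precision, and signal over background is unknown.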

Other observations

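The 3 wild-type columns left out of the fit give these values for the iron genes. As deposited, wild-type replicates 1 and 2 read 5.91 and 7.23 for Fth1, -0.41 and 0.66 for the brighter Slc11a2 probe, 4.79 and 5.55 for Cp probe 4088, 2.67 and 1.61 for Cp probe 15288 and -0.87 and 0.50 for Hfe. After the move they read 4.72 and 6.0 for Ftl1, -1.40 and -1.02 for Slc40a1 and 0.60 and 1.57 for Aco1. The quantity in the column of wild-type replicate 5 is unknown, since it did not follow the other samples (r of -0.02, SD 0.48). It held a value for 3 of the 12 probes, -1.17 for Slc40a1, -0.76 for Slc11a2 probe 29227 and 0.06 for Hfe.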
